A study of Mus musculus with 2 samples.

Results

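Forkhead and Sox genes encode transcription factors of 2 families, and their transcript ratios were measured in mouse mammary glands in which Cre could delete Gata3 on 1 or on both alleles. Members were taken by symbol from the platform's probe-to-gene table. A forkhead member was any gene named Fox with a letter from a to s and a number, with Foxa1 left out, and a Sox member was any gene named Sox and a number. This gave 54 genes of 15056, of which 38 were forkhead genes measured by 54 features and 16 were Sox genes measured by 25 features. The rule uses names only, and it was written with earlier results of these data known. Foxk2, Sox9 and Sox10 were not analysed here.

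The glands came from adult mice that all carried WAP-rtTA-Cre, a doxycycline-dependent Cre placed under the control of a milk protein gene promoter. By this design Cre is meant to arise in mammary epithelium and not in the fat, stroma or vessels of the gland. Where Cre acted was not measured here. All mice received doxycycline for 5 days. GATA-3flox/+; WAP-rtTA-Cre mice (het) can lose 1 Gata3 allele and GATA-3flox/flox; WAP-rtTA-Cre mice (null) can lose both. On each of 2 spotted oligonucleotide arrays the Cy5 channel held the het sample and the Cy3 channel the null sample, and dyes were exchanged on 0 arrays. No label ties an array to separate animals. The SD of a gene therefore reflects only how far these 2 arrays differ, which may be a technical spread. Its p-value and interval also draw on that spread over all other genes.

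All values are ratios of the channels, read as log2, as deposited. Which channel was the numerator was not stated in the labels. If it was Cy5, positive values stand for higher RNA in het glands. If it was Cy3, they stand for higher RNA in null glands, and each sign given here is turned. Gata3 itself stood at 1.60 and then 0.20 on arrays 1 and 2 and did not pass the test (limma adjusted p = 0.156). Ratios carry no level, so whether a gene was expressed at all cannot be read from them, and the identity of the tissue could not be checked from marker levels. In a whole gland, fewer cells of a type and less RNA per cell cannot be told apart. Across all genes the SD of the ratios was 0.61 on array 1 and 0.41 on array 2. Markers of cell types of the gland gave the following counts of genes positive and negative on both arrays: 1 and 5 of 9 for luminal epithelium, 2 and 3 of 6 for milk, 1 and 4 of 7 for basal myoepithelium, 2 and 4 of 7 for adipocytes, and 2 and 3 of 6 for macrophages. Over all genes 33.7% were positive on both arrays and 34.1% negative on both. Of these markers, Csn3 of milk (limma adjusted p = 0.0367) and Ctss of macrophages (limma adjusted p = 0.0336) passed with positive ratios. Krt5 of basal myoepithelium passed with negative ones (limma adjusted p = 0.0494). The other markers of these cell types did not pass, where 8.26% of all genes did. The part of the cell types in the ratios of forkhead and Sox genes was not tested.

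Forkhead proteins bind DNA through a winged-helix domain. Some, such as the FoxA and FoxD factors, can open closed chromatin, while FoxO factors are held in the cytoplasm by insulin and growth factor signalling through Akt. Sox proteins bind the minor groove through an HMG box, bend the DNA and act with partner factors to set progenitor states. In the mammary gland, FOXC1 marks basal-like human tumours, Foxm1 acts in dividing luminal progenitors, and Sox4 is linked to the mesenchymal shift of epithelial cells.

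Because Gata3 was the gene targeted in these mice, the start regions of members were searched for GATA words. RefSeq (build GRCm38.p6) gave 45 start regions for 35 of the 54 members, and the 250 bases before each start were read. A GATA word here means the letters GATA with A or T just before and A or G just after them, on either strand. Of these windows, 4 of 28 forkhead and 2 of 17 Sox windows held at least 1 GATA word, against 26.5% of all 32851 windows. The members with a word were Foxa2, Foxd3, Foxp3, Sox11 and Sox6, or 5 of the 35, and Foxp3 held it in more than 1 window. The median G+C content was 60.8% in the members' windows and 52.4% in all windows, and its part in the count was not tested. Foxd3 and Foxl2 are shown because they passed the test of the ratios. Foxc2 passed as well, but it was among the members without a start region and was not searched. Foxc1 is shown because its neighbours had ratios of the same sign and Foxo3 because all its features were negative. Sox11 and Sox6 are shown as the Sox genes with a GATA word. Capitals mark GATA words, read on either strand.
Foxd3: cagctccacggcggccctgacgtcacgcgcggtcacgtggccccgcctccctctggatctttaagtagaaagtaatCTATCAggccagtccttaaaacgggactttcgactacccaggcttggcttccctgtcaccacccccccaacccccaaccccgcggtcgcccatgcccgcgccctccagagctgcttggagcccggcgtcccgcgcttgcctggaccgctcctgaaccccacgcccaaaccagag
Foxl2: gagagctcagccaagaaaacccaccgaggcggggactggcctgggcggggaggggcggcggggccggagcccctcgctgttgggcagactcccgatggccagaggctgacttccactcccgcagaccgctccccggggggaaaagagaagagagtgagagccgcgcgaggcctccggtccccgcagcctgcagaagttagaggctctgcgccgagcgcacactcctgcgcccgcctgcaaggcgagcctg
Foxc1: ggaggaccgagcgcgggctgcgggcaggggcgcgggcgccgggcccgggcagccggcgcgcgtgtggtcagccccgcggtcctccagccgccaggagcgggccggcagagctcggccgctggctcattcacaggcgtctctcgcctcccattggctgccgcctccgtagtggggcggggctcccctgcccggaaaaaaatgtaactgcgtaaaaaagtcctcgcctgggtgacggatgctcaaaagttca
Foxo3: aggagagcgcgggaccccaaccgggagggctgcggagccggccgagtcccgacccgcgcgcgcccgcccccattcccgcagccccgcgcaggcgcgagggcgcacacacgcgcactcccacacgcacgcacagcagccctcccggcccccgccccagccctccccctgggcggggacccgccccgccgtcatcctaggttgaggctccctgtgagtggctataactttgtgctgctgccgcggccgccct
Sox11: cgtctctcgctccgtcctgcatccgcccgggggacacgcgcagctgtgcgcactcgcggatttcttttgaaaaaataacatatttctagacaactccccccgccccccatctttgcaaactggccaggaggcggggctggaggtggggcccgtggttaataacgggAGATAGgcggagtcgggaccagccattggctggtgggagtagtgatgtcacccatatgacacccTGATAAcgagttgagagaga
Sox6: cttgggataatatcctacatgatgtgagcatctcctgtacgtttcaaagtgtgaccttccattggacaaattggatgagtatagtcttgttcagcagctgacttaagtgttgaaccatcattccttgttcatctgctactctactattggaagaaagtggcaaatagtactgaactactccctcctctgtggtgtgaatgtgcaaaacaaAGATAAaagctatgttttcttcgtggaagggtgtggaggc
In these windows, Foxd3 (chr4:99656049-99656298, plus strand) had 1 GATA word, at position -174 counted from the annotated start. Foxl2 (chr9:98955357-98955606, plus strand), Foxc1 (chr13:31806396-31806645, plus strand) and Foxo3 (chr10:42276696-42276945, minus strand) had 0. Sox11 (chr12:27342719-27342968, minus strand) had 2, and the Sox6 window shown (chr7:115846141-115846390, minus strand) had 1 and was 1 of 6 start regions of that gene. Either forkhead word, GTAAACA or its variant starting with another purine, ATAAACA, lay in 3 of 28 forkhead and 1 of 17 Sox windows, against 7.10% of all. These windows belonged to 3 genes, Foxp1, Foxp3 and Sox12, and more than 1 was of Foxp1. Either Sox word, ACAATGG or the variant used beside it, ACAAAGG, lay in 2 of 28 forkhead and 6 of 17 Sox windows, against 7.92% of all, and 4 of those 6 belonged to Sox6 alone. Such matches are descriptions of the letters and not binding sites.

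A gene passed the gene-level test when the mean of its ratios differed from 0 by limma at an adjusted p under 0.05 over all genes. Among the 38 forkhead genes, Foxc2 and Foxd3 passed with positive ratios and Foxl2 passed with a negative one, and 35 did not pass. Foxc2 acts in lymphatic vessels and mesenchyme, Foxd3 in neural crest and pluripotent cells, and Foxl2 in the ovary and the eyelid. These 3 members are 7.89% of the family, close to the 8.26% of all genes that passed (7.28% with positive and 0.983% with negative ratios). With each array's median subtracted 7 forkhead genes passed, or 18.4%, beside 11.9% of all genes. Before adjustment, 11 of 38 forkhead genes had p under 0.05, or 28.9%, against 23.8% of all genes. All 3 were measured by a single feature. Genes with 1 feature passed in 11.4% of cases over the whole array, and genes with 2 or more in 2.24%.

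Foxc2 stood at 1.19 on array 1 and at 1.15 on array 2, a 2.29-fold and a 2.23-fold difference between the channels. The arrays were close together, and the mean was 1.17 ± 0.03 (SD, n = 2; 95% interval 0.76 to 1.59; limma adjusted p = 0.0336). It was the only forkhead gene at least 2-fold from 0 with a positive ratio on both arrays, a mark reached by 2% of all genes, and 0 members reached it on the negative side (0.146% of all genes). The adjusted p of 0.0336 was the lowest over all genes and was shared by other genes, so it does not rank Foxc2 among them.

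Foxd3 had ratios of 1.11 and 0.76, averaging 0.94 ± 0.25 (SD, n = 2), and passed (limma adjusted p = 0.0376). Foxl2 had ratios of -1.69 and -0.69, averaging -1.19 ± 0.70 (SD, n = 2), and passed (limma adjusted p = 0.0452). Its value on array 1 was larger in size than that on array 2. Its call was lost with a robust prior (limma adjusted p = 0.0504), or when features of all genes were summarised by their median (limma adjusted p = 0.0579). Foxl2 has a single feature, and its own mean stayed at -1.19 in both settings. With features tested in place of genes, 0 of all 38976 features passed, Foxc2, Foxd3 and Foxl2 among them (limma adjusted p = 0.0512, 0.0566 and 0.0619), while 8559 features had p under 0.05 before adjustment.

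**Figure D1:**
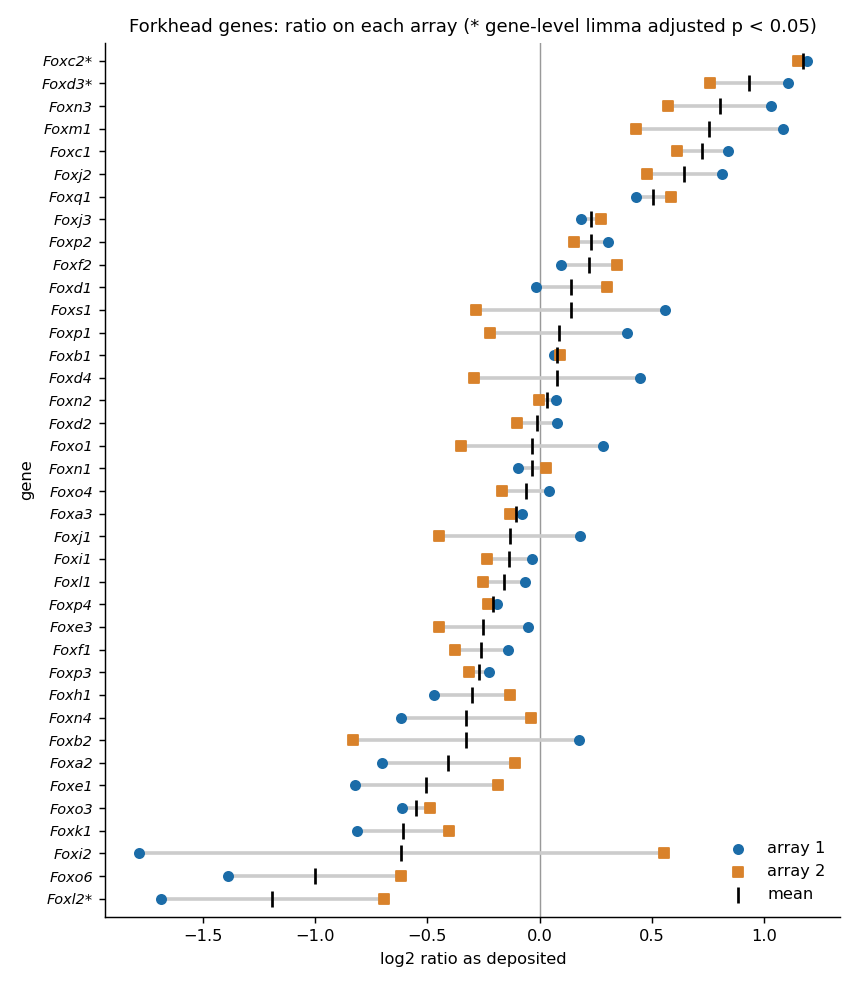
Ratio of each of the 38 forkhead genes on array 1 (circles) and array 2 (squares), as log2 values on the x axis, with the mean as a vertical tick and genes in order of their mean. The 3 genes with an asterisk passed the gene-level test; Foxi2 spans the widest gap between the arrays, from -1.79 to 0.55.

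As a family, forkhead genes went both ways: 11 were positive on both arrays, 15 were negative on both and 12 had opposite signs. Over all genes 33.7% were positive on both and 34.1% negative on both. The family's median was 0.05 on array 1 and -0.13 on array 2, beside 0.01 and -0.01 for all genes. Means ran from -1.19 to 1.17. Hox genes, another family of developmental transcription factors, had a median of -0.11 on either array over 36 genes. Of the Hox genes 3 passed (8.33%, beside 8.26% of all genes). All 3 had negative ratios, and 0.983% of all genes passed on that side. Olfactory receptor genes, best known from the nose, had medians of 0.51 and 0.42 over 844 genes, of which 244 (28.9%) passed, 242 of them with positive ratios.

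The FoxC genes act in mesenchyme, blood and lymphatic vessels, and both had positive ratios. Foxc1 had ratios of 0.84 and 0.61 and did not pass (mean 0.73 ± 0.16, SD, n = 2; limma adjusted p = 0.0600). It passed after each array's median was subtracted (limma adjusted p = 0.0338). With a robust prior (limma adjusted p = 0.0611) or the median of a gene's features (limma adjusted p = 0.0694) Foxc1 did not pass. Foxc1 lies beside Foxf2 and Foxq1 on chromosome 13, with 0 other protein-coding genes between them in the RefSeq gene order.

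Foxq1, a factor of hair and stomach epithelium, had ratios of 0.43 and 0.59, and Foxf2, of gut and palate mesenchyme, 0.10 and 0.35. So the 3 neighbouring genes were positive on both arrays, and none of them passed. The sister cluster on chromosome 8 did not share a sign. There Foxc2 was positive, while Foxl1 had ratios of -0.06 and -0.25 and Foxf1, 1 protein-coding gene away, -0.14 and -0.38. Foxl1 and Foxf1 are both factors of gut mesenchyme, and Foxs1, of pericytes and sensory neurons, had 0.56 and -0.28. Fibroblast markers, as a measure of other mesenchyme in the gland, were negative on both arrays for 3 of 7 genes, positive for 0 and mixed for 4, with medians of -0.66 and -0.04. Their part in the FoxC ratios was not tested.

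FoxO factors are the Akt-inhibited arm of insulin signalling and turn on genes of cell cycle arrest, stress defence and cell death. Foxo3 was measured by 4 features, and all 8 of its values were negative. Feature by feature they were -0.50 and -0.51, -0.31 and -0.15, -1.18 and -0.73, and -0.48 and -0.56 on arrays 1 and 2. The mean of the gene was -0.55 ± 0.09 (SD, n = 2) and did not pass (limma adjusted p = 0.116). Features of 1 sign throughout were found for 6.38% of the 298 genes with 4 features.

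Foxo6, a brain and liver factor, had 1 feature with ratios of -1.39 and -0.62. Its mean of -1.0 ± 0.55 (SD, n = 2) lay just outside the threshold (limma adjusted p = 0.0502), and it passed with the medians subtracted (limma adjusted p = 0.0248). It did not pass with a robust prior (limma adjusted p = 0.0542) or the median of a gene's features (limma adjusted p = 0.0636). Foxo1 could not be given a sign, since its features opposed each other, at 0.99 and 0.58 for the first and -0.42 and -1.27 for the second. Foxo4 lay near 0, at 0.04 and -0.17. Thus 2 of the 4 FoxO genes were negative on both arrays and 2 had mixed signs.

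Of 18 measured genes listed as upstream regulators of FoxO, 8 were positive on both arrays and 7 negative on both. The 8 include Pdk1 (0.33 and 0.05), which encodes a pyruvate dehydrogenase kinase and not the Akt-activating kinase, Pdpk1. Pdk1 is kept in all counts and medians of this list. Ywhae, a 14-3-3 protein that can bind phosphorylated FoxO, passed at 1.50 and 0.88 (limma adjusted p = 0.0336), and 0 regulators passed with negative ratios. That is 1 of 18, where 8.26% of all genes passed. Ywhaz, another 14-3-3 protein, had 0.73 and 0.70, each a mean of 77 features. Usp7, a deubiquitinase, had 0.56 and 0.77, and the deacetylase Sirt1 0.90 and 0.39, and these 3 did not pass. The list median was 0.03 on array 1 and 0.06 on array 2.

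Among 22 measured FoxO targets, 9 were positive on both arrays and 7 negative on both. Of these targets 3 passed, in both directions, against 8.26% of all genes. Sod2, the mitochondrial superoxide dismutase, had 1.15 and 0.87, and S1pr1, a sphingosine phosphate receptor, had 1.49 and 0.87 (limma adjusted p = 0.0336 each). Gadd45a, a growth arrest gene, had -1.75 and -0.95 (limma adjusted p = 0.0336). The cell death genes Bnip3 (2.81 and 0.58) and Tnfsf10 (1.89 and 0.55) and the pocket protein gene Rbl2 (-0.92 and -0.27) did not pass. The targets as a list had a median of 0.22 on array 1 and -0.06 on array 2, so the arrays did not share a sign.

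Foxm1, which drives genes of mitosis, was positive on both of its features, at 0.49 and 0.24 for the first and 1.67 and 0.61 for the second. Its mean of 0.76 ± 0.46 (SD, n = 2) did not pass (limma adjusted p = 0.0890), and it passed with the medians subtracted (limma adjusted p = 0.0478). It did not pass with a robust prior (limma adjusted p = 0.0927) or the median of a gene's features (limma adjusted p = 0.103). Of 14 measured Foxm1 targets, 6 were positive on both arrays, 4 negative on both and 4 mixed, with medians of 0.17 and 0.07. Nek2, a centrosome kinase, was the 1 target that passed, against 8.26% of all genes, at 0.83 and 0.90 (limma adjusted p = 0.0381). Ccna2, a cyclin of S phase and mitosis, had 0.47 and 1.04, Aurkb, a mitotic kinase, 0.56 and 0.95, and Cenpa, the centromeric histone, 1.20 and 0.23, and these did not pass. Other targets of Foxm1 lay below 0, among them Plk1 (-0.39 and -0.14) and Cdc20 (-0.26 and -0.38).

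The FoxN and FoxJ groups held further genes with positive ratios on both arrays. Foxn3, a checkpoint-linked repressor, was positive on both features, at 0.44 and 0.35 for the first and 1.63 and 0.79 for the second. The mean was 0.80 ± 0.33 (SD, n = 2, limma adjusted p = 0.0582), and it passed with the medians subtracted (limma adjusted p = 0.0290). It did not pass with a robust prior (limma adjusted p = 0.0601) or the median of a gene's features (limma adjusted p = 0.0694). Foxn1, the factor of thymic and hair epithelium, had -0.09 and 0.03, Foxn2 0.07 and -0.004, and Foxn4, of retina, -0.62 and -0.04. The FoxN genes thus had no common sign.

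Foxj2 had ratios of 0.81 and 0.48 and did not pass (limma adjusted p = 0.0901). Foxj3 had the most features of any member, 5, and they disagreed: 1 feature had 1.66 and 0.99, and another -0.52 and -0.02. Foxj1, the master factor of motile cilia, had 0.18 and -0.45. Of 12 measured genes of motile cilia, 3 were positive on both arrays and 6 negative on both. Of these 12 genes 1 passed, against 8.26% of all genes. It was Dynlrb2, a dynein light chain, at 0.95 and 0.85 (limma adjusted p = 0.0367). Mlf1 (-0.66 and -0.67) and the dynein genes Dnaic1 (0.36 and 0.77) and Dnah11 (-0.33 and -0.67) did not pass.

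FoxP factors act in lymphocytes, lung and brain, and their ratios were small. Foxp1 had 0.39 and -0.22, Foxp4 -0.19 and -0.23, and Foxp2, over 3 features, 0.30 and 0.15. Of the Foxp2 features, 1 gave opposite signs, 0.745 and -0.036, and the others were positive on both arrays. Foxp3, the factor of regulatory T cells, had a mean of -0.27 ± 0.06 (SD, n = 2), but 1 of its features gave opposite signs, 0.12 and -0.26, while the other gave -0.57 and -0.37. T cell markers went both ways, with 2 of 6 positive on both arrays, 2 negative on both and medians of 0.08 and 0.05. Of these 6 markers 1 passed, against 8.26% of all genes. It was Cd3g, at 1.10 and 0.68 (limma adjusted p = 0.0428). Il2ra had 0.37 and 0.43, Cd3e -0.53 and -0.17 and Cd2 -0.42 and -0.20, and these did not pass. The part of T cell number in the Foxp3 ratio was not tested.

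Foxa2 and Foxa3, pioneer factors of liver and gut and relatives of the luminal factor Foxa1, were negative on both arrays. Foxa3 lay near 0, at -0.08 and -0.13. Foxa2 had -0.10 and -0.09 for 1 feature and -1.31 and -0.13 for the other. Its mean of -0.41 ± 0.42 (SD, n = 2; limma adjusted p = 0.310) thus rested mainly on 1 feature on array 1. Foxk1, a metabolic and myogenic factor, had -0.81 and -0.41 (mean -0.61 ± 0.29, SD, n = 2; limma adjusted p = 0.112). Foxe1, of the thyroid, had -0.82 and -0.19, Foxe3, of the lens, -0.05 and -0.45, and Foxh1, a partner of Smad proteins, -0.47 and -0.13. None of these genes passed.

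The remaining forkhead genes are factors of embryonic brain, kidney, ear and other tissues, and none passed. Foxb1 shows how far features can disagree: 1 gave 0.88 and 0.84 and the other -0.75 and -0.66, each repeated closely on both arrays, so that the mean of 0.08 describes neither. Foxb2 had 0.17 and -0.83. Foxi2 had -1.79 on array 1 and 0.55 on array 2, a spread of 1.66 (SD, n = 2), the widest of all members. Foxi1 had -0.03 and -0.24, from features that each had mixed signs, at -0.206 and 0.005 and at 0.137 and -0.477. Foxd1, Foxd2 and Foxd4 had mixed signs, with means between -0.01 and 0.14, unlike Foxd3.

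Of the 16 Sox genes, 0 passed the gene-level limma test, against 8.26% of all genes, and 2 of 16 had p under 0.05 before adjustment (12.5%, against 23.8% of all). No other tool was run, and with features tested in place of genes 0 Sox features passed. On both arrays 6 were positive (33.7% of all genes were) and 8 negative (34.1%), and 2 had mixed signs. The Sox median stood at -0.19 on array 1 and at -0.02 on array 2, beside 0.01 and -0.01 for all genes. Means ran from -0.61 for Sox1 to 0.53 for Sox4, a narrower range than among forkhead genes, with fewer genes measured.

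**Figure D2:**
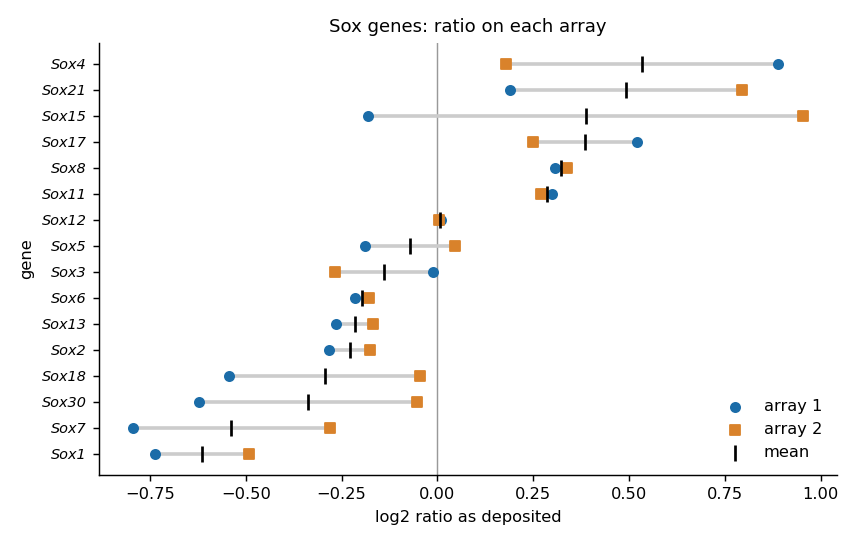
Ratio of each of the 16 Sox genes on array 1 (circles) and array 2 (squares), as log2 values on the x axis, with the mean as a vertical tick and genes in order of their mean. Sox15 had opposite signs on the arrays (-0.18 and 0.95), while Sox8, Sox11 and Sox6 had nearly equal values on both.

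SoxB factors keep neural and pluripotent progenitors undifferentiated. Sox1 had the most negative Sox mean, from ratios of -0.74 and -0.49 (mean -0.61 ± 0.17, SD, n = 2; limma adjusted p = 0.0944), and of the alternatives run it passed only under quantile normalization (limma adjusted p = 0.0377) or at an adjusted p of 0.1. Sox2 had -0.28 and -0.18 and Sox3 -0.01 and -0.27. Sox21, which opposes the other SoxB factors in neural progenitors, had 0.19 and 0.80. So 3 of these 4 genes were negative on both arrays. Of 9 measured pluripotency partners of Sox2, 2 were positive and 3 negative on both arrays. Of these 9 genes 0 passed, against 8.26% of all genes. Klf4 had 0.63 and 0.43, Pou5f1 -0.39 and -0.42 and Lin28a 0.52 and 0.12.

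SoxC factors act in neuronal and mesenchymal progenitors, and all 3 genes had a positive mean on both arrays. Sox4 had 0.89 and 0.18 (mean 0.53 ± 0.50, SD, n = 2; limma adjusted p = 0.212), but its features differed, with 1.75 and 0.60 for 1 and 0.02 and -0.24 for the other. Sox11 had a mean of 0.28 ± 0.02 (SD, n = 2), and it too rested on 1 of 3 features. That feature gave 1.40 and 0.82, and the others -0.60 and -0.02, and 0.10 and 0.01. Sox12 lay at 0.01 and 0.004. Apart from 1 feature each of Sox4 and Sox11, the SoxC features did not lie clearly above 0 on both arrays.

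SoxD proteins lack a transactivation domain of their own and work beside SoxE factors, in cartilage above all. Sox6 was negative on all 3 features and both arrays, from -0.40 to -0.06, averaging -0.20 ± 0.02 (SD, n = 2), and did not pass (limma adjusted p = 0.569). Features of 1 sign throughout were found for 10.5% of the 1116 genes with 3 features. Sox13 had -0.26 and -0.17. Sox5 had 4 features of mixed sign, and its gene values were -0.19 and 0.05.

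Sox8 was the sole SoxE gene, of the group that acts in neural crest, glia and testis, and its ratios were 0.31 and 0.34 (limma adjusted p = 0.330). Genes known as targets of the related factors did not pass, where 8.26% of all genes did. Of 12 cartilage genes that Sox9 activates, 3 were positive and 4 negative on both arrays, with Col11a1 at -0.96 and -0.44, Col9a2 at 0.49 and 0.69 and Matn3 at 0.64 and 0.50. Of 10 glial and melanocyte genes linked to Sox10, 4 were positive and 4 negative on both, with S100b at -0.68 and -0.24, Mitf at 0.52 and 0.37 and Ednrb at -0.62 and -0.21. Schwann cell markers were positive for 3 and negative for 2 of 5 genes.

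SoxF factors form vessels, and their 3 genes did not share a sign. Sox17, of arterial endothelium, had 0.52 and 0.25 (limma adjusted p = 0.267). Sox7 had -0.79 and -0.28 (limma adjusted p = 0.168), and Sox18, of lymphatic vessels, -0.54 and -0.04. Endothelial genes linked to SoxF factors also went both ways, with 4 of 13 positive and 5 negative on both arrays and medians of -0.03 and 0.09. Of these 13 genes 0 passed, against 8.26% of all genes. The endothelial receptor Kdr had 0.66 and 0.56, the Notch ligand Dll4 0.91 and 0.28 and the junction protein Cldn5 -0.94 and -0.17. The 7 measured endothelial markers are all among these 13 genes, with 2 positive and 3 negative on both, and their part in the SoxF ratios was not tested. Sox15, expressed in muscle progenitors and placenta, and Sox30, in the testis, complete the family, with Sox30 at -0.62 and -0.05 over 2 features of opposed sign.

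**Figure D3:**
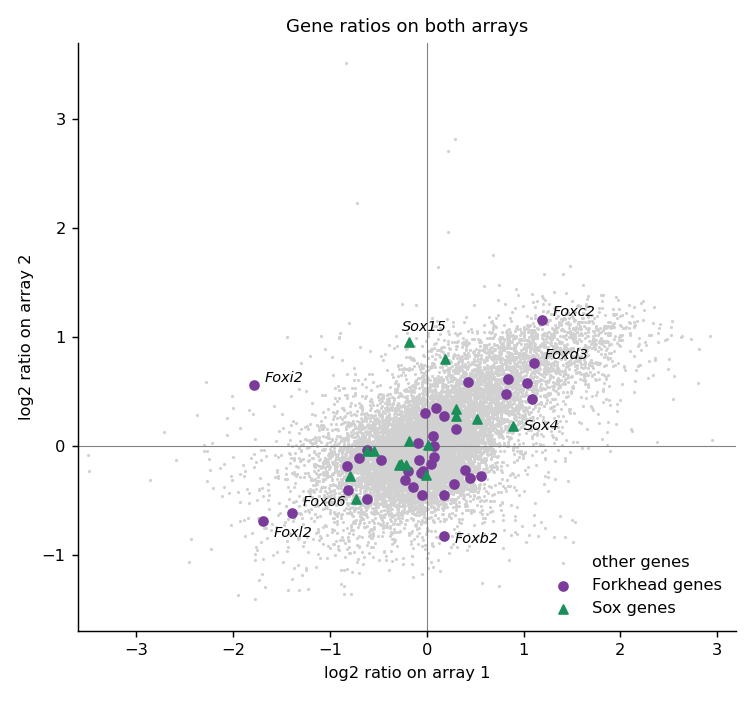
Log2 ratio on array 1 (x axis) against array 2 (y axis) for all 15056 genes in grey, with forkhead genes as circles and Sox genes as triangles. Foxc2 and Foxd3 lie in the upper right and Foxl2 and Foxo6 in the lower left, while Foxi2, Foxb2 and Sox15 lie off the diagonal.

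Agreement between the arrays was measured over genes as a description, since genes share the arrays and are not replicates. Pearson's r was 0.526 over the 38 forkhead genes, 0.499 over the 16 Sox genes and 0.616 over all genes. All points of an array share its labelling, hybridisation and dye orientation, so agreement between arrays is not separate from dye bias of a probe.

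Features of the same gene were compared as well. They lie on the same arrays and share the samples and the dye orientation. Of the 54 members, 39 had 1 feature and 15 had several. In 5 of those 15 every feature had 1 sign on both arrays, against 19.2% of all 5138 genes with 2 or more features. These were Foxa2, Foxo3 and Sox6 with negative ratios, and Foxm1 and Foxn3 with positive ones. The spread within a gene was wide, with a median SD between features of 0.84 on array 1 and 0.34 on array 2, beside 0.40 and 0.27 for all such genes. The sources do not say if such features repeat a probe or hold several probes. No second feature carried the symbol of Foxc2, Foxd3 or Foxl2, so the genes that passed were not checked in this way.

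**Figure D4:**
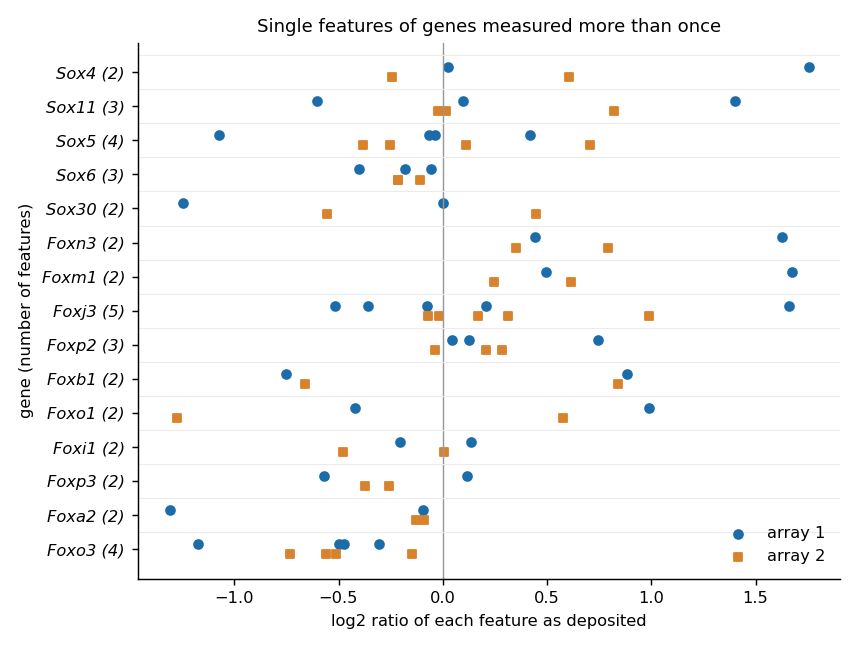
Log2 ratio of every feature of the 15 members with more than 1 feature, on array 1 (circles) and array 2 (squares), with the number of features in brackets. All values of Foxo3 and Sox6 lie below 0 and all of Foxm1 and Foxn3 above it, while the features of Foxb1 and Foxo1 lie on both sides.

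**Figure D5:**
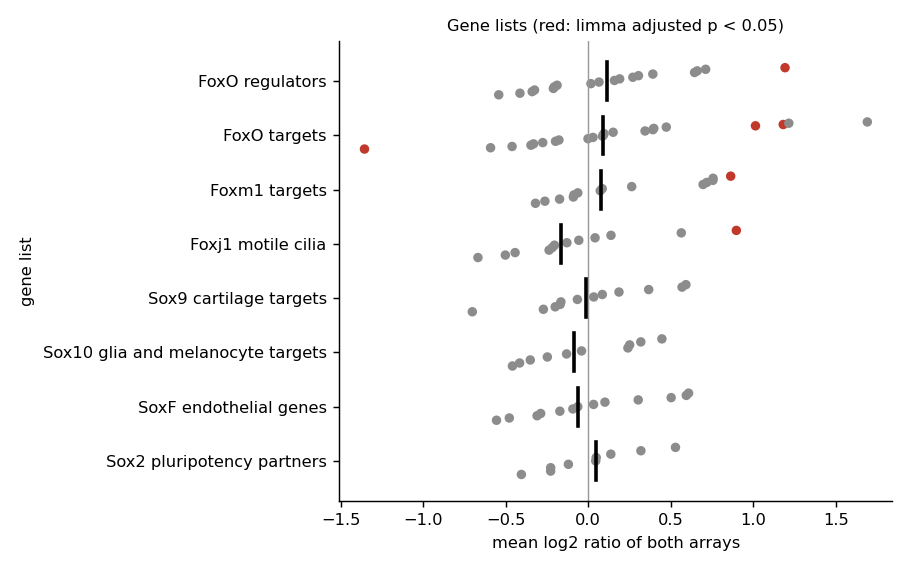
Mean log2 ratio of both arrays for each measured gene of the 8 lists of regulators, targets and partners, with the list median as a vertical bar and genes that passed the gene-level test in red. Each list has genes on both sides of 0, and every median of the means lies between -0.17 and 0.11.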

How the data were processed

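Mammary gland RNA of het and null mice was compared on 2 two-colour spotted arrays, per the labels. Per the series' design text, lowess was applied by the authors per print-tip in Acuity 4.0. The deposited values were read as log2 ratios from their range and that software's usual scale. The sources state no log base, numerator, background correction, spot filter or centring, and another base would rescale every value and fold. Spot intensities were not used here, so dim spots could not be filtered. Precision is limited by there being 2 arrays.

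Of 38976 features, 22973 had a gene symbol and 16003 did not. The former stood for 15056 genes, all matched by Entrez ID to RefSeq (GRCm38.p6). Columns of values left unused numbered 0. The features of a gene were averaged on each array. Each gene was fitted by limma 3.58.1 (R 4.3.3) as an intercept, two-sided against 0 under the default prior, and p-values were adjusted by Benjamini-Hochberg across genes (threshold 0.05). There was 1 residual degree of freedom, to which the prior added 5.41, so the test and the 95% intervals rest on variance shared across genes. With 2 arrays, the smallest p of an exact sign-flip test is 0.5. A dye term could not be fitted.

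The members and the lists (191 genes, 160 measured) were chosen with earlier results of these data known. By rule, values are given for genes that passed, for 5 genes at each end of each family with 1 sign on both arrays, for genes with 3 or more features and for genes with known roles. From each list of regulators, targets and partners, genes that passed and up to 3 others with large ratios of 1 sign are named. The remaining members, Plk1, Cdc20, Pdk1, Csn3, Ctss, Krt5 and the T cell markers were named after their values were seen. Words in start regions were counted by exact match. Figures were drawn with matplotlib 3.10.9.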

Additional observations from a re-analysis of the deposited data

How the results depend on the processing

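Counts of genes that passed depended on the scaling. The 3 forkhead genes (7.89%, beside 8.26% of all genes) became 7 (18.4%) with each array's median subtracted, 8 (21.1%) with the arrays scaled to equal median absolute deviation, 9 (23.7%) after quantile normalization and 8 (21.1%) at an adjusted p of 0.1. Over all genes the count of 1244 became 1793 (11.9%), 1941 (12.9%), 2391 (15.9%) and 2113 (14%) in the same order, so that the forkhead share was close to that of all genes in the reported setting and above it in these 4. The difference between the shares was not tested. Each of these sets held Foxc2, Foxd3 and Foxl2. The forkhead count became 2 (5.26%) with a robust prior, beside 1183 of all genes (7.86%). With the median of a gene's features it was also 2 (5.26%), beside 942 of all genes (6.26%). In both of these settings the forkhead share was below that of all genes. For features in place of genes the count was 0, and 0 of all features passed. The genes added were Foxc1, Foxm1, Foxn3 and Foxo6 in all 4 larger sets, Foxj2 in 3 and Foxk1 after quantile normalization. The 0 Sox genes became 1, Sox1, after quantile normalization and at an adjusted p of 0.1. The forkhead median of -0.05 lay between -0.13 and 0.05 with 1 array left out, and the Sox median of -0.11 between -0.19 and -0.02. Each ratio already pairs a het with a null sample on 1 array, so the reported fit is the paired one. With 1 array left out no test remains.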
